A study of Mus musculus with 8 samples.

Results

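Sirtuins are enzymes that remove acetyl and other acyl groups from lysines, or transfer ADP-ribose, and spend NAD in doing so. The mouse has 7 of them, Sirt1 to Sirt7, and all 7 are described here out of 20660 genes that the arrays name. They were chosen by name: every gene probe whose RefSeq annotation belongs to one of these genes was taken, which gave 10 probes of 55681. Sirt1, Sirt2, Sirt3 and Sirt5 have 1 probe each, and Sirt4, Sirt6 and Sirt7 have 2 each. Both probes of each of the last 3 genes are annotated to the same transcript.

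The study compared muscle RNA of mice with 1 inactivated copy of Eif6 (Eif6+/-), which encodes a factor that binds the large ribosomal subunit, with that of wild-type (WT) mice. The animals were male C57BL6 littermates of 8 to 16 weeks. In all, 4 Eif6+/- and 4 WT mice were used, and every mutant was matched at random to a WT mouse of its age. RNA came from whole gastrocnemius and tibialis anterior (TA) muscle, homogenized after excess fat and connective tissue had been taken off. Fewer cells of a type and less RNA per cell therefore cannot be told apart.

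Each of 8 arrays, 4 per muscle, held 1 such pair, with the Eif6+/- sample labelled Cy5 and the WT sample Cy3. The log2 ratio on an array is the normalized Cy5 over Cy3 signal of a probe, so a value above 0 means more signal in the mutant of that pair. The dyes were not swapped, so dye and genotype cannot be told apart for any probe. All 8 arrays lay on 1 slide, gastrocnemius in row 1 and TA in row 2, so the row on the slide cannot be told apart from the muscle. The share of probes read well above background ran from 38.7% to 46% per array in Cy3 and from 43.6% to 48.6% in Cy5. The number of arrays limits the precision. All 10 sirtuin probes passed the signal filter in both muscles and none was saturated. The only sirtuin reading not well above background was that of Sirt7 probe A_55_P2045697 in the WT sample of gastrocnemius pair 4.

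Sirtuins link the cell's supply of NAD to the acylation state of its proteins, and they differ mainly in where they work. Sirt1, Sirt6 and Sirt7 are mostly nuclear and act on histones, transcription factors and the ribosomal RNA genes, while Sirt2 is mostly cytosolic. Sirt3, Sirt4 and Sirt5 lie in the mitochondrial matrix, where they act on enzymes of fat oxidation, the citric acid cycle and amino acid use, which are abundant in oxidative muscle fibres.

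The promoter table from RefSeq (GRCm38.p6, 250 bases before to 50 bases after each annotated start) held 9 windows for the 7 sirtuins. A search on both strands covered 5 short motifs of factors known for mitochondrial, housekeeping or nutrient-responsive genes. NRF1 (GCGCATGCG) was found in Sirt6 and Sirt7 and in 1.75% of all 32851 windows. The estrogen-related receptor motif (AAGGTCA) was found in Sirt5 and in 4.72% of all windows. The ETS core (CCGGAAG) was found in Sirt3, Sirt6 and Sirt7 and in 8.86% of all windows. The E-box (CACGTG) was found in Sirt1 and in 7.15% of all windows, and the CRE (TGACGTCA) was in none of the sirtuin windows and in 1.79% of all. Stretches are shown for the sirtuins whose transcripts passed a test described further on. The capitals mark the motif, with the ETS core on the opposite strand in Sirt3 and in the second Sirt6 stretch. They lie at chr7:140882377-140882405 (minus strand) for Sirt3, chr13:43365359-43365387 (plus strand) for Sirt5, and chr10:81627691-81627719 and chr10:81627584-81627612 (minus strand) for Sirt6. The NRF1 match in Sirt6 reads as a match on both strands, shifted by 1 base. Each is a match of letters, described as such, and the windows of Sirt2 and Sirt4 held none of the 5 motifs.
Sirt3 ETS: gtgctcgctcaCTTCCGGcaccgcgggcg
Sirt5 estrogen-related receptor motif: atgagccttggAAGGTCAcaaagacacat
Sirt6 NRF1: catcaggaggGCGCATGCGctctggaaag
Sirt6 ETS: tcccttcaccaCTTCCGGcggaagcggcc

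Eif6 itself gives a check of the labels, although it is not known whether its probes read the inactivated stretch. At probe A_52_P85864 the log2 levels in gastrocnemius were 10.56, 10.90, 10.65 and 10.65 in the WT samples and 9.59, 9.75, 9.76 and 9.59 in the Eif6+/- samples of pairs 1 to 4. In TA they were 10.67, 10.52, 10.52 and 10.44 in WT and 9.45, 9.49, 9.57 and 9.64 in Eif6+/-. Every Eif6+/- sample lay below every WT sample of its muscle. The mean log2 ratio was −1.02 in gastrocnemius (limma, SE 0.08, adjusted p 0.0239, lower on 4 of 4 arrays) and −0.999 in TA (adjusted p 0.0108). The other Eif6 probe, A_55_P1989013, gave −1.13 (adjusted p 0.0239) and −1.12 (adjusted p 0.00292), and its groups did not overlap in either muscle. Without gastrocnemius pair 3 or pair 4 both probes missed the threshold in that muscle (adjusted p 0.121 and 0.156), at ratios of −1.06 and −1.004 for the first probe and −1.13 and −1.14 for the second.

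The comparison of Eif6+/- with WT mice asks which transcripts differ with the loss of 1 Eif6 copy in each muscle. In gastrocnemius, Sirt3, Sirt5, 1 of the 2 Sirt4 probes and 1 of the 2 Sirt6 probes rose. In TA, Sirt2 fell and the same Sirt6 probe rose. Sirt1 and Sirt7 passed the test in neither muscle. A value was called where its limma p, adjusted over all probes tested in the muscle, was under 0.1. By that rule 4 of 10 sirtuin probes were called in gastrocnemius, against 13.8% of all 23790 probes tested, and 2 of 10 in TA, against 15.2% of 23383. All 4 gastrocnemius calls were higher in Eif6+/-, where 8.1% of all probes were called higher and 5.69% lower. In TA there was 1 call each way, beside 7.68% higher and 7.51% lower over all probes.

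Counted by the brightest probe of each gene, 3 of 7 sirtuins were called in gastrocnemius, all higher, beside 15.4% of 12601 genes. In TA 1 of 7 was called, lower, beside 16.3% of 12374 genes. The median log2 ratio of the 7 genes was 0.30 in gastrocnemius and 0.03 in TA, and over all genes tested it was 0.02 in both muscles. At an unadjusted p under 0.05 there were 7 sirtuin probes in gastrocnemius (26.3% of all probes) and 3 in TA (27.5%).

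The gastrocnemius calls depended on single pairs. Without pair 3, limma called 0 of all probes (4204 at an unadjusted p under 0.05, 4 of them sirtuin probes), and without pair 4 it also called 0 (4447, with 6 sirtuin probes), so no gastrocnemius call below holds without either pair. SAM, run on all 4 arrays, called 6 of 10 sirtuin probes in gastrocnemius, beside 23% of all probes, and 2 of 10 in TA, beside 20.1%. A one-sample test of each probe alone, without limma's shared variance, called 0 sirtuin probes in both muscles after adjustment. Of all probes it called 0 in gastrocnemius and 53 in TA. At an unadjusted p under 0.05 it had 4 and 3 sirtuin probes, beside 4684 of all 23790 probes and 4647 of 23383. Of these tests the study's methods name SAM for the arrays. With the scanner software's own processed signals, 91.1% of the gastrocnemius calls over all probes were higher in Eif6+/-, against 58.7% here, and 77.5% against 50.5% in TA. Those log2 ratios were centred on the median of each array, so the signals and the normalization changed together. The median of all gastrocnemius probes tested was then 0.12.

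Counts with an array left out or with other signals are read against their own shares of all genes, by the brightest probe. Without gastrocnemius pair 1 these were 8.3% higher and 5.74% lower, and without pair 2 they were 6.33% and 4.4%. In TA they were 0.428% and 0.121% without pair 1, 2.73% and 1.57% without pair 2, 5.94% and 3.63% without pair 3, and 8.83% and 7.47% without pair 4. The scanner software's signals gave 7.15% and 0.611% in gastrocnemius and 4.89% and 1.27% in TA.

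**Figure D1:**
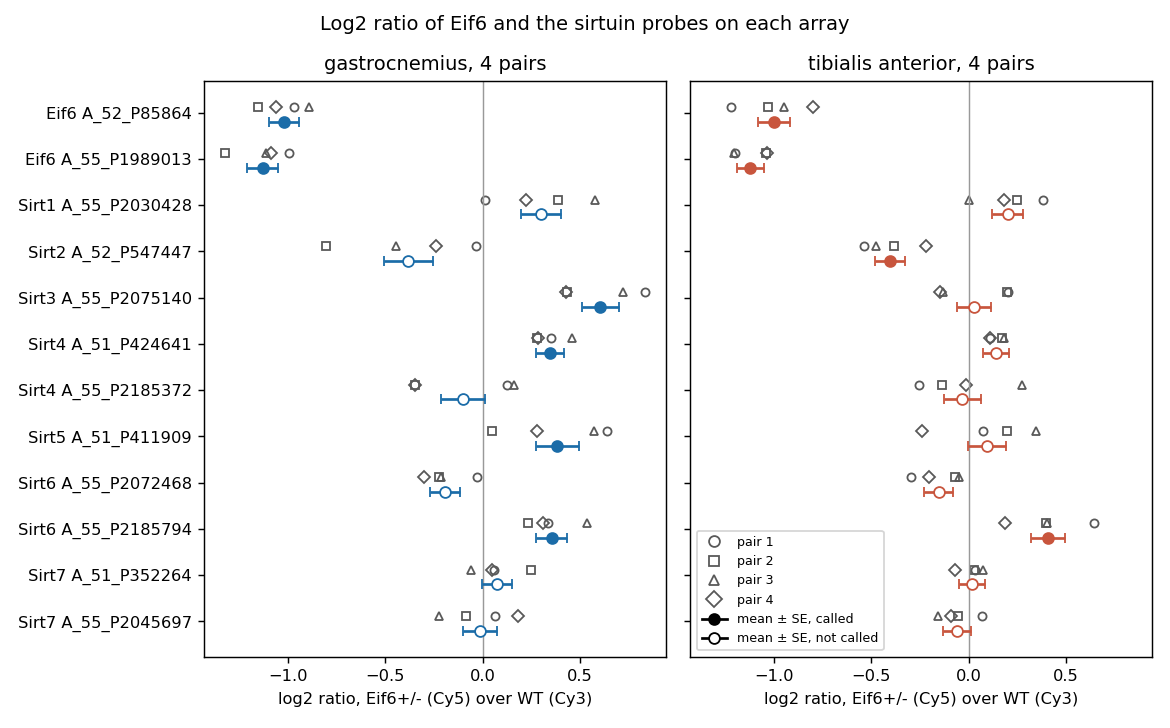
Log2 ratio of Eif6+/- (Cy5) over WT (Cy3) for the Eif6 and sirtuin probes on each array, with gastrocnemius on the left and TA on the right. Open grey symbols are the 4 pairs, and coloured points with bars are the mean and its standard error, filled where called. Sirt3 lies above 0 on all 4 gastrocnemius arrays and on both sides of 0 in TA.

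Sirt1, the nuclear deacetylase of p53, FOXO factors and PGC-1α, had log2 levels of 7.96, 7.46, 7.47 and 7.82 in the WT and 7.98, 7.84, 8.04 and 8.05 in the Eif6+/- gastrocnemius of pairs 1 to 4. In TA the WT samples read 7.72, 7.99, 8.07 and 8.21 and the Eif6+/- samples 8.10, 8.23, 8.07 and 8.39. The groups overlapped in both muscles. WT gastrocnemius was the most spread of the 4 groups, with pairs 2 and 3 low. The log2 ratios were 0.01, 0.39, 0.58 and 0.22 in gastrocnemius, a mean of 0.30 (SE 0.10, adjusted p 0.12). In TA they were 0.38, 0.25, 0.00 and 0.18, a mean of 0.20 (SE 0.08, adjusted p 0.149, above 0 on 3 of 4 arrays). Neither mean was called, though Sirt1 came close to the threshold. It crossed in gastrocnemius without pair 1 (0.40, adjusted p 0.071), with the scanner software's signals (0.46, adjusted p 0.0884) and by SAM, and in TA with loess alone (0.24, adjusted p 0.0906) and in the deposited value table (0.27, adjusted p 0.0975).

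Sirt6, a nuclear deacetylase of histone H3 that holds down glycolytic genes and takes part in DNA repair, gave opposite values at its 2 probes. Probe A_55_P2185794 had log2 levels of 6.63, 6.80, 6.68 and 6.66 in WT and 6.97, 7.03, 7.22 and 6.97 in Eif6+/- gastrocnemius. In TA it had 6.76, 6.64, 6.74 and 6.77 in WT and 7.40, 7.04, 7.14 and 6.95 in Eif6+/-. Every Eif6+/- sample lay above every WT sample in both muscles, with the highest readings in gastrocnemius pair 3 and TA pair 1. Its log2 ratios rose by a mean of 0.35 in gastrocnemius (SE 0.08, adjusted p 0.0512, higher on 4 of 4 arrays) and 0.41 in TA (SE 0.09, adjusted p 0.0364, higher on 4 of 4 arrays).

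The size of that Sirt6 change moved widely with the processing. It was 0.65 in gastrocnemius and 0.74 in TA with no offset, and 1.55 and 1.64 with the scanner software's signals, called each time. This probe was dim, at 6.63 to 6.80 in WT gastrocnemius. Sirt7 probe A_55_P2045697, with 1 reading there not well above background, had 6.41 to 6.67. The call was lost without gastrocnemius pair 3 or 4 (adjusted p 0.177 and 0.176, at 0.29 and 0.37) and without TA pair 1 or 2 (adjusted p 0.181 and 0.107, at 0.33 and 0.41).

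At Sirt6 probe A_55_P2072468, which stands for the gene in the counts by gene, the log2 ratios were −0.03, −0.23, −0.21 and −0.30 in gastrocnemius and −0.29, −0.07, −0.05 and −0.20 in TA. All 8 lay below 0, while all 8 of the other probe lay above it. The means, −0.19 (SE 0.08, adjusted p 0.168) and −0.15 (SE 0.07, adjusted p 0.214), were not called, and the WT and Eif6+/- levels of this probe overlapped in both muscles. No direction for Sirt6 as a gene can be given from these probes.

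Sirt7, the sirtuin of the nucleolus that acts on transcription of ribosomal RNA genes, was called at neither probe in either muscle. The log2 ratios of probe A_51_P352264 were 0.06, 0.25, −0.06 and 0.05 in gastrocnemius and 0.03, 0.03, 0.08 and −0.07 in TA. Those of A_55_P2045697 were 0.06, −0.08, −0.22 and 0.18 in gastrocnemius and 0.07, −0.05, −0.16 and −0.09 in TA. WT and Eif6+/- levels overlapped at both probes in both muscles. None of the 4 means was called: 0.07 (adjusted p 0.588) and 0.02 (adjusted p 0.896) at the first probe, −0.02 (adjusted p 0.93) and −0.06 (adjusted p 0.623) at the second. The 95% intervals ran from −0.11 to 0.26 and from −0.14 to 0.17 at the first probe, and from −0.22 to 0.19 and from −0.22 to 0.10 at the second. With the scanner software's signals the first probe had 0.20 in gastrocnemius and 0.18 in TA (adjusted p 0.384 and 0.353).

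Sirt2, the cytosolic deacetylase of tubulin and of metabolic enzymes, was the sirtuin that fell. Its log2 levels in TA were 11.71, 11.27, 11.19 and 11.15 in WT and 11.17, 10.89, 10.72 and 10.92 in Eif6+/-. In gastrocnemius they were 11.07, 11.84, 11.33 and 11.18 in WT and 11.03, 11.03, 10.89 and 10.94 in Eif6+/-. Every gastrocnemius WT sample lay above every Eif6+/- sample, by a narrow margin, whereas in TA the Eif6+/- sample of pair 1 lay among the WT samples. Pair 1 in TA and pair 2 in gastrocnemius held the WT samples with the highest Sirt2.

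The log2 ratios of Sirt2 in TA were −0.54, −0.38, −0.48 and −0.22, a mean of −0.40 (SE 0.08, adjusted p 0.0295, lower on 4 of 4 arrays). In gastrocnemius they were −0.03, −0.80, −0.45 and −0.24, with a similar mean of −0.38 and a wider spread (SE 0.12, adjusted p 0.113), which was not called. The difference between the muscles was 0.02 (95% interval −0.32 to 0.37, adjusted p 0.981), so the call in TA alone does not show that Sirt2 differed between them. The TA call was lost without pair 1 (−0.36, adjusted p 0.161) and with the scanner software's signals (−0.32, adjusted p 0.134). Gastrocnemius was called without pair 1 (−0.50, adjusted p 0.0668) and by SAM, and its mean was −0.24 without pair 2.

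Sirt3, the main deacetylase of the mitochondrial matrix, rose in gastrocnemius. Its WT log2 levels there were 10.36, 10.34, 10.34 and 10.64, and the Eif6+/- levels 11.20, 10.77, 11.06 and 11.06. In TA the WT samples read 11.24, 11.22, 11.18 and 11.34 and the Eif6+/- samples 11.44, 11.42, 11.05 and 11.19. In gastrocnemius every Eif6+/- sample lay above every WT sample, and WT gastrocnemius was the lowest of the 4 groups. In TA the genotypes overlapped, with pairs 1 and 2 slightly higher and pairs 3 and 4 slightly lower in Eif6+/-. The Eif6+/- gastrocnemius samples reached up to the lower TA samples.

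The gastrocnemius log2 ratios of Sirt3 were 0.84, 0.43, 0.72 and 0.43, a mean of 0.60 (SE 0.09, 95% interval 0.38 to 0.83, adjusted p 0.031, higher on 4 of 4 arrays). In TA they were 0.20, 0.20, −0.13 and −0.15, a mean of 0.03 (SE 0.09, adjusted p 0.852). The sign of that small TA mean turned without pair 1 or pair 2 (−0.03 each), and it was 0.16 with the scanner software's signals (adjusted p 0.442). No processing choice ended the gastrocnemius call, but it was lost without pair 3 or pair 4 (adjusted p 0.128 and 0.156, at 0.56 and 0.66) and with the one-sample test of each probe alone (adjusted p 0.177).

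Sirt4, a mitochondrial sirtuin known for ADP-ribosylating glutamate dehydrogenase and for removing lipoyl and other acyl groups, also rose in gastrocnemius at probe A_51_P424641. The WT levels were 7.46, 7.65, 7.43 and 7.55 and the Eif6+/- levels 7.81, 7.93, 7.89 and 7.83. TA had 8.15, 8.21, 8.12 and 8.23 in WT and 8.25, 8.38, 8.30 and 8.34 in Eif6+/-. The genotypes were apart in both muscles, and both TA groups lay above both gastrocnemius groups. The 4 pairs stood closer together than for any other sirtuin called in gastrocnemius, with log2 ratios of 0.35, 0.28, 0.46 and 0.29 there and 0.11, 0.17, 0.18 and 0.11 in TA.

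The mean Sirt4 ratio at that probe was 0.34 in gastrocnemius (SE 0.07, adjusted p 0.0466, higher on 4 of 4 arrays). In TA it was 0.14 (SE 0.07, adjusted p 0.202), above 0 on 4 of 4 arrays and not called. With the scanner software's signals the gastrocnemius value was 0.53, and without pair 3 or pair 4 its call was lost (adjusted p 0.168 and 0.169, at 0.31 and 0.36). The other Sirt4 probe, A_55_P2185372, gave 0.12, −0.35, 0.16 and −0.35 in gastrocnemius and −0.25, −0.14, 0.28 and −0.01 in TA. Its arrays were split in sign, its groups overlapped, and neither mean was called (−0.10, adjusted p 0.603, and −0.03, adjusted p 0.852). With 1 array left out these means ran from −0.19 to −0.02 and from −0.13 to 0.04.

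Sirt5, which removes succinyl, malonyl and glutaryl groups in mitochondria, had log2 levels of 9.34, 9.51, 9.18 and 9.77 in WT and 9.97, 9.56, 9.75 and 10.05 in Eif6+/- gastrocnemius. In TA they were 9.88, 10.07, 9.83 and 10.23 in WT and 9.95, 10.27, 10.18 and 9.99 in Eif6+/-. The genotypes overlapped in both muscles, though within each gastrocnemius pair the Eif6+/- sample was the higher. The ratios were 0.64, 0.05, 0.57 and 0.28 in gastrocnemius, with pair 2 near 0, and 0.07, 0.20, 0.35 and −0.24 in TA.

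Sirt5 rose in gastrocnemius by a mean of 0.38 (SE 0.11, adjusted p 0.0851, higher on 4 of 4 arrays), the least firm of the gastrocnemius calls. It was lost without pair 1 (adjusted p 0.169), 3 (0.274) or 4 (0.207), with no background offset (0.112), with the scanner software's signals (0.145) and with no signal filter (0.101). In TA the mean was 0.09 (adjusted p 0.56), which was not called. It moved with single pairs, to 0.01 without pair 3 (adjusted p 0.963) and 0.21 without pair 4 (adjusted p 0.178).

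**Figure D2:**
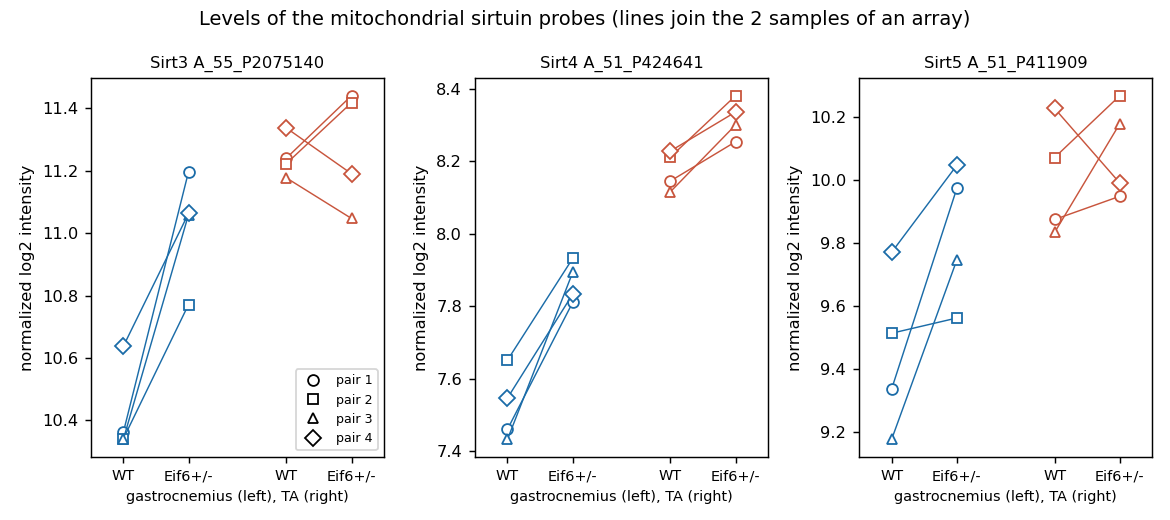
Normalized log2 intensity of the brightest probe of Sirt3, Sirt4 and Sirt5 in each sample, with gastrocnemius on the left and TA on the right of each panel. Lines join the WT and Eif6+/- samples of 1 array. The mean of WT gastrocnemius is the lowest of the 4 groups for all 3 genes.

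Whether the genotype ratio differed between the muscles was tested directly, as gastrocnemius minus TA over all 8 arrays. With 4 mice of each genotype in all, both muscles would come from the same mice, but the labels do not say which arrays share them. This test, and that of the WT muscles below, treats the arrays as independent. No sirtuin passed: limma called 0 of 10 sirtuin probes, beside 0% of 22757 probes in all. At an unadjusted p under 0.05 it had 2 sirtuin probes, Sirt3 and Sirt4 probe A_51_P424641, beside 1733 of all probes (7.62%). With the pair number as a block limma also called 0 probes (1412 unadjusted, 1 of them a sirtuin probe). SAM was not run for this comparison. The Sirt3 ratios of the 4 gastrocnemius arrays all lay above those of the 4 TA arrays, with a difference of 0.57 (95% interval 0.28 to 0.87, unadjusted p 0.00127, adjusted p 0.636). The Sirt4 ratios at A_51_P424641 were apart in the same way, with a difference of 0.20 (95% interval 0.01 to 0.39, unadjusted p 0.0407, adjusted p 0.638). For Sirt5 the ratios overlapped and the difference was 0.29 (95% interval −0.06 to 0.64, adjusted p 0.669), or 0.18 without TA pair 4. The Sirt6 probe called in both muscles differed by −0.05 (95% interval −0.31 to 0.20, adjusted p 0.927). The rise of Sirt3, Sirt5 and 1 of the 2 Sirt4 probes in gastrocnemius is therefore not shown to be larger than in TA after adjustment.

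The WT samples alone, all in Cy3, give the level of each sirtuin in the muscles without the mutation. Sirt3, Sirt5 and 1 of the 2 Sirt4 probes were lower in WT gastrocnemius than in WT TA, and no other sirtuin probe was called with all arrays in. By count, 3 of 10 sirtuin probes were called, beside 20.5% of 21509 probes, and all 3 were lower in gastrocnemius, where 12.7% of all probes were called lower and 7.75% higher. At an unadjusted p under 0.05 there were 4 sirtuin probes, beside 29.5% of all probes. Counted by the brightest probe, 3 of 7 sirtuins were called, beside 22.8% of 11830 genes, and all 3 were lower, beside 14.1%, with a median of −0.32 over the 7 and −0.03 over all genes.

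The Sirt3 levels given above were apart between the WT muscles, at 10.34 to 10.64 in gastrocnemius and 11.18 to 11.34 in TA. The difference was −0.83 (SE 0.09, limma adjusted p 0.00157). For Sirt4 at A_51_P424641 the WT levels were 7.43 to 7.65 and 8.12 to 8.23, also apart, with a difference of −0.65 (SE 0.08, adjusted p 0.00227). Sirt5 ran from 9.18 to 9.77 in gastrocnemius and from 9.83 to 10.23 in TA, close but not overlapping, and differed by −0.55 (SE 0.14, adjusted p 0.0302). With the pair number as a block the adjusted p were 0.0058, 0.00994 and 0.0159 for the 3. These 3 calls held under all 6 other analyses run for this comparison and without any 1 of the 8 arrays.

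The remaining sirtuins gave smaller values between the WT muscles, all with overlapping groups. Sirt1 had −0.32 (adjusted p 0.167) and was called without gastrocnemius pair 1 (−0.41, adjusted p 0.0894) or TA pair 1 (−0.41, adjusted p 0.0988). Sirt2 had 0.02 (adjusted p 0.946). The Sirt6 probes gave −0.08 and −0.03, the Sirt7 probes 0.19 and −0.07, and the other Sirt4 probe −0.13 (adjusted p 0.557), and none was called. As a description, Eif6+/- gastrocnemius minus Eif6+/- TA was −0.25 for Sirt3, −0.45 for Sirt4 (A_51_P424641) and −0.26 for Sirt5. The Sirt3 and Sirt5 levels of the Eif6+/- muscles overlapped, while those of Sirt4 were still apart. Those of Sirt1 were apart as well, at −0.22. The WT gastrocnemius samples enter both this comparison and the gastrocnemius ratio, so a low WT reading moves both values, and they are not independent of each other.

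The proteins that mitochondrial sirtuins act on were followed through a list of 32 genes, 28 of them tested, counted by the brightest probe. The list was chosen with earlier results of these data known. Its genes were read on the same arrays, so they are not 28 separate observations. In gastrocnemius 10 of 28 rose and 0 fell, beside 9.87% higher and 5.54% lower among all genes, with a median of 0.24 against 0.02. In TA 2 rose and 6 fell, beside 8.99% and 7.28%, with a median of −0.07. The median kept its sign in each muscle under all 11 alternatives (0.14 to 0.34 and −0.08 to −0.02). Among these, SAM, the one-sample test and a stricter threshold use the same ratios and could not move it. With the scanner software's signals 5 were called higher and 0 lower in gastrocnemius, and 2 each way in TA. At an unadjusted p under 0.05 the list had 11 genes in gastrocnemius and 10 in TA, beside 29% and 29.1% of all genes. With 1 array left out the median ran from 0.13, without pair 1, to 0.34 in gastrocnemius and from −0.13 to −0.01 in TA. Between the muscles, 27 of 28 genes had a higher ratio in gastrocnemius, beside 52.2% of 12198 genes in all. The median difference was 0.31, against 0.01 over all genes, but limma called 0 of the list, as of all genes. At an unadjusted p under 0.05 there were 10, beside 8.17% of all genes, and the median difference ran from 0.19 to 0.42 with 1 array left out. In the WT muscles 19 of 28 were lower in gastrocnemius and 0 higher, beside 14.1% and 8.74% of all genes, with a median of −0.44. The WT gastrocnemius samples enter the gastrocnemius ratios, the difference between muscles and this comparison. These counts are therefore not independent of each other.

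Among these sirtuin targets, Slc25a4, the main adenine nucleotide carrier of muscle mitochondria, gave log2 ratios of 0.96, 1.00, 1.21 and 0.87 in gastrocnemius and 0.79, 0.47, 0.28 and 0.03 in TA. All 8 lay above 0, and the gastrocnemius values lay above those of TA. The means were 1.01 (limma adjusted p 0.0239) and 0.39 (adjusted p 0.0758). The TA mean was 0.26 without pair 1 (adjusted p 0.278) and 0.78 with loess alone. Mdh2, malate dehydrogenase of the citric acid cycle, rose by 0.67 in gastrocnemius (adjusted p 0.0437) and 0.42 in TA (adjusted p 0.0863). Its TA ratios were 0.93, 0.45, 0.29 and 0.02, with a mean of 0.25 without pair 1 (adjusted p 0.286) and 0.64 in the deposited table. Uqcrfs1, the iron-sulphur subunit of respiratory complex III, rose by 0.63 in gastrocnemius (adjusted p 0.0356). In TA, Hadha of fat oxidation had −0.57 (adjusted p 0.026), Ppif, the cyclophilin of the permeability pore, −0.52 (adjusted p 0.0484), and Got2, mitochondrial aspartate aminotransferase, −0.51 (adjusted p 0.0168). Ppif (adjusted p 0.171) and Got2 (0.105) were not called with the scanner software's signals, and with no background offset Slc25a4 (0.129) and Mdh2 (0.142) were not called in TA. Without gastrocnemius pair 1 there were 6 targets called higher and 1 lower, and without pair 3 or 4 there were 0 (10 and 13 at an unadjusted p under 0.05). Without TA pair 1 limma called 0 targets (8 unadjusted), and 113 of all probes. SAM on all 4 arrays called 11 higher and 0 lower in gastrocnemius, beside 15.2% and 10.2% of all genes. In TA it called 3 higher and 6 lower, beside 11.8% and 9.33%.

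Markers of slow fibres were uneven between arrays, and their values stand beside those of Sirt3. Their median log2 ratio over 7 genes was 2.71 on gastrocnemius array 1 and −1.29, −0.26 and −0.34 on arrays 2 to 4. In TA it was −0.20, −0.68, −0.08 and −1.35. Gastrocnemius pair 1, with the largest Sirt3 ratio, had a mutant sample with far more slow fibre signal than its WT partner. The Sirt3 ratios on gastrocnemius arrays 1 to 4 were 0.84, 0.43, 0.72 and 0.43. On array 3 the summed slow fibre intensity was slightly higher in Eif6+/- (15.52 against 15.33), although the median ratio was below 0. The part of slow fibres in the Sirt3 values was not tested. The mitochondrial sirtuin targets had medians of 0.47, −0.05, 0.44 and 0.03 on the gastrocnemius arrays and 0.01, 0.03, −0.02 and −0.20 on those of TA.

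**Figure D3:**
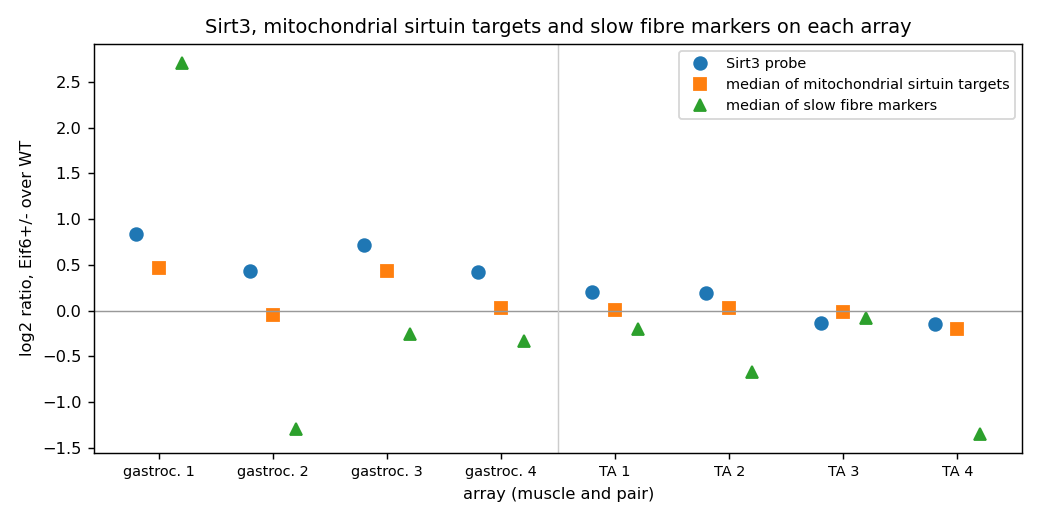
Log2 ratio of Eif6+/- over WT on each array for the Sirt3 probe, the median of 28 mitochondrial sirtuin targets and the median of 7 slow fibre markers. The slow fibre median reaches 2.71 on gastrocnemius array 1 and is below 0 on the other 7 arrays.

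The log2 of the summed intensity of the slow fibre markers was 13.82, 15.99, 15.33 and 17.23 in WT and 17.05, 14.90, 15.52 and 17.05 in Eif6+/- gastrocnemius. In TA it was 13.56, 15.08, 13.34 and 15.22 in WT and 13.57, 14.56, 13.28 and 13.77 in Eif6+/-. All 7 markers were above background in every sample, and Myl3 was the brightest. By limma, 0 of 7 were called in gastrocnemius (median 0.38), with 0 also at an unadjusted p under 0.05 and by SAM. Without pair 1, 3 of 7 were called lower (median −0.74), beside 5.74% of all genes, and without pair 2 the median was 0.85. In TA 3 of 7 fell (median −0.44, or −0.88 without pair 3), beside 7.28% of all genes, and 0 were called without pair 1 (4 unadjusted). Between the WT muscles 6 of 7 were higher in gastrocnemius (median 2.12), where Sirt3, Sirt5 and Sirt4 probe A_51_P424641 were lower, beside 8.74% of all genes. So were 5 of 6 fat cell markers (median 2.34) and 4 of 6 connective tissue markers (median 0.94). Their part in the sirtuin values was not tested. With pair 1 left out, the gastrocnemius means were 0.53 for Sirt3 (adjusted p 0.0433), 0.34 for Sirt4 (adjusted p 0.0782) and 0.30 for Sirt5 (adjusted p 0.169).

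Proteins deacetylated by Sirt1, Sirt2, Sirt6 or Sirt7, with regulators and partners of the same nuclear pathways, formed a list of 27 genes, 26 of them tested. In gastrocnemius 4 rose and 3 fell, beside 9.87% and 5.54% of all genes (median −0.07, between −0.08 and 0.04 over the alternatives). In TA 0 rose and 3 fell by limma, beside 8.99% and 7.28% of all genes (median −0.06, between −0.06 and 0.00). SAM called 6 higher and 4 lower in gastrocnemius, beside 15.2% and 10.2% of all genes, and 2 higher and 3 lower in TA, beside 11.8% and 9.33%. With the scanner software's signals there were 0 higher and 2 lower in gastrocnemius and 1 each way in TA. With no background offset there were 1 higher and 4 lower in gastrocnemius, beside 7.4% and 4.09% of all genes. In TA there were then 0 higher and 1 lower, beside 5.5% and 4.27%. Ppara, a nuclear receptor for fatty acids, rose by 0.97 in gastrocnemius (adjusted p 0.0978), with ratios of 2.10, 0.08, 1.25 and 0.43. Without pair 1, which had the slow fibre median of 2.71, its mean was 0.59 (adjusted p 0.131). The part of slow fibres in the Ppara values was not tested. Ppargc1a, which encodes the Sirt1 target PGC-1α, had gastrocnemius ratios of 0.30, 0.20, 0.46 and 0.37, a mean of 0.33 (adjusted p 0.053), and TA ratios of −0.07, −0.15, −0.46 and −0.12. All 4 lay above 0 in gastrocnemius and below 0 in TA. Gabpa, an ETS factor of mitochondrial genes whose partner subunit is a Sirt7 target, rose by 0.27 (adjusted p 0.0863). The calls of Ppara (adjusted p 0.141), Ppargc1a (0.102) and Gabpa (0.109) were lost with the scanner software's signals. Ppara (0.108) and Gabpa (0.109) were also lost with no background offset, and Ppara with no signal filter (0.141). Gabpa was lost as well without pair 1 (0.143) or pair 2 (0.107).

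The Sirt2 target Pck1, of glucose synthesis and also active in fat cells, had ratios of −0.65, −0.29, −0.91 and −1.06 in gastrocnemius, a mean of −0.73 (adjusted p 0.0356). In TA it had 0.36, −0.23, 0.55 and 0.72 (mean 0.35, adjusted p 0.146). Fat cell markers had medians of −0.13, −0.00, −0.25 and −1.01 on the gastrocnemius arrays and 0.49, −0.11, 1.30 and 0.42 on those of TA, and their part in the Pck1 values was not tested. By limma 2 of 6 of them fell in gastrocnemius and 3 of 6 rose in TA. The log2 of the summed intensity over 7 fat cell markers, with Fabp4 the brightest, was 15.18, 14.92, 14.44 and 16.10 in WT gastrocnemius. In Eif6+/- gastrocnemius it was 14.72, 14.82, 14.02 and 14.73. In TA it was 13.89, 13.74, 13.90 and 14.01 in WT and 13.91, 13.73, 14.59 and 13.82 in Eif6+/-.

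Another Sirt2 target, G6pdx of the pentose phosphate pathway, had −0.52 in gastrocnemius (adjusted p 0.0472). Trp53, which encodes the Sirt1 substrate p53, had −0.38 (adjusted p 0.0765). In TA the called members were Stk11, the kinase upstream of AMPK, at −0.28 (adjusted p 0.0789), Foxo1 at −0.25 (adjusted p 0.0736) and Srebf2, of sterol synthesis, at −0.24 (adjusted p 0.0874). These 5 genes and Pck1 were below 0 on 4 of 4 arrays of the muscle in which they were called. Trp53 had −1.05 and Srebf2 −0.70, both called, with the scanner software's signals, and Foxo1 −0.16 (adjusted p 0.414). G6pdx (0.174) and Stk11 (0.17) also lost their calls with those signals, and Srebf2 with loess alone (0.101). With no background offset Stk11 (adjusted p 0.137, at −0.29) and Foxo1 (0.127, at −0.27) were not called in TA. Without gastrocnemius pair 1 the nuclear list had 1 higher and 3 lower calls, and without pair 2 it had 2 and 2. In TA 0 were called without pair 1 (4 at an unadjusted p under 0.05), 1 (higher) without pair 2, and 2 (lower) without pair 3 or 4.

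Regulators of Sirt1 were counted over 12 tested genes of 16. In gastrocnemius 1 rose and 2 fell (median −0.07), beside 15.4% of all genes called either way. In TA 1 rose and 3 fell (median −0.03, between −0.03 and 0.07 over the alternatives and −0.06 and 0.02 with 1 array left out), beside 16.3%. With the scanner software's signals limma called 0 in gastrocnemius (1 at an unadjusted p under 0.05) and 0 in TA (3 unadjusted). With no background offset 1 was called each way in gastrocnemius, beside 7.4% higher and 4.09% lower of all genes. In TA 0 were then called (4 unadjusted), beside 5.5% and 4.27%. The gastrocnemius counts were also 1 higher and 2 lower with loess alone, quantile normalization alone, no background correction and the deposited table. Ccar2, an inhibitor that binds Sirt1, rose by 0.29 in gastrocnemius (adjusted p 0.0741). Ncor1, a corepressor that works with Sirt1, had −0.37 in gastrocnemius (adjusted p 0.0666, below 0 on 4 of 4 arrays) and −0.35 in TA (adjusted p 0.0982). The TA ratios were −0.65, −0.50, −0.38 and 0.10, so array 4 lay above 0. Prkaa2, an AMPK subunit, had −0.35 in gastrocnemius (adjusted p 0.0614), and −0.23 with the scanner software's signals (adjusted p 0.333). In TA, Csnk2a1, a kinase that phosphorylates Sirt1, rose by 0.26 (adjusted p 0.0789). Hic1, a repressor of Sirt1, had −0.30 there (adjusted p 0.0682), and the methyltransferase Prmt5 −0.30 (adjusted p 0.0999, below 0 on 3 of 4 arrays). The TA calls of Ncor1 and Prmt5 lay at the threshold and were lost under all 6 other kinds of processing, among them loess alone (adjusted p 0.117 and 0.122) and the deposited table (0.115 and 0.12). Without gastrocnemius pair 1 there were 0 higher and 3 lower calls, and without pair 2 there were 0 (3 at an unadjusted p under 0.05). In TA the calls numbered 0 without pair 1 or 2 (2 and 4 unadjusted) and 2 without pair 3 or 4.

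The NAD that sirtuins spend is made and recycled by a list of 20 genes, of which 17 were tested in gastrocnemius and 16 in TA. In gastrocnemius only Nadk2, the mitochondrial NAD kinase, was called, at 0.29 (adjusted p 0.0751), for a list median of 0.08, beside 15.4% of all genes called. It was lost without pair 1, where limma called 0 of the list (3 at an unadjusted p under 0.05), with no background offset (adjusted p 0.114) and with the scanner software's signals (adjusted p 0.15). With no offset 1 other gene of the list was called lower, and with those signals limma called 0 (4 unadjusted) and the median was 0.22. In TA limma called 0 (median 0.01), with 1 at an unadjusted p under 0.05 and 1 by SAM, beside 16.3% of all genes by limma and, by SAM, 11.8% higher and 9.33% lower. The genes of lowest p there were Slc25a51, the mitochondrial NAD carrier, at −0.27 (adjusted p 0.105) and Naprt, of NAD synthesis from nicotinic acid, at 0.18 (adjusted p 0.222), which was 0.11 without pair 3 and 0.29 with the scanner software's signals.

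Other enzymes that use NAD, in competition with sirtuins, or that clear nicotinamide were counted over 19 tested genes of 22. In gastrocnemius 2 rose and 0 fell (median 0.04, between −0.03 and 0.15 over the alternatives), beside 15.4% of all genes called. SAM called 4 higher and 2 lower there, beside 15.2% and 10.2% of all genes. In TA 1 rose and 1 fell (median 0.05, between 0.03 and 0.13), beside 16.3%. In each muscle 1 was called higher and 0 lower with the scanner software's signals. Parp4, an ADP-ribosyltransferase of vault particles, rose by 0.41 in gastrocnemius (adjusted p 0.0445) and 0.31 in TA (adjusted p 0.0489), and had 0.69 and 0.53 with the scanner software's signals. Parp6 rose by 0.39 in gastrocnemius (adjusted p 0.0414, 0.128 with those signals). Art5, an ADP-ribosyltransferase, had −0.30 in TA (adjusted p 0.0965), which was −0.18 without pair 3 (adjusted p 0.238). The Art5 call was also lost with no background offset (0.154), no background correction (0.105) and the scanner software's signals (0.203). It was lost as well without pair 1 (0.207), 2 (0.184) or 4 (0.115). Without TA pair 1, 2 or 3 limma called 0 of these genes in TA (5, 2 and 2 at an unadjusted p under 0.05), and without pair 4 it called 4.

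**Figure D4:**
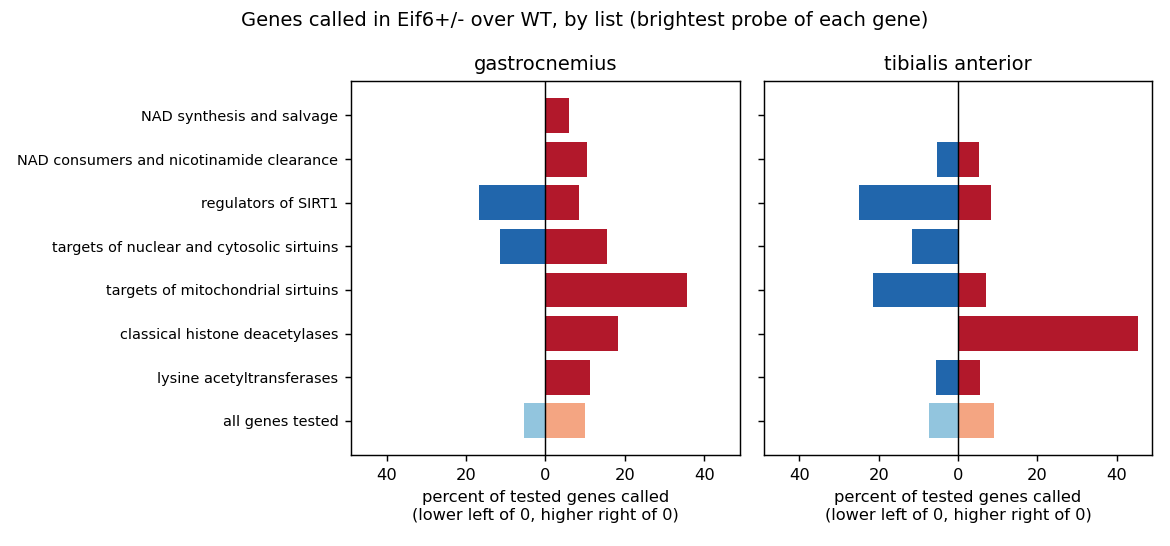
Percent of the tested genes of each list called higher (right of 0) or lower (left of 0) in Eif6+/- than in WT, by muscle, with all genes tested in the lowest row. Targets of mitochondrial sirtuins have 10 genes called higher and none lower of 28 in gastrocnemius, and 2 higher and 6 lower in TA.

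The genes whose log2 ratios had the highest Pearson's r with each sirtuin over the 8 arrays were sought among 12197 other genes, as a description in which arrays of 1 muscle share that muscle. The highest of so many r over so few arrays is near 1 even among unrelated genes, so the names give an order and no sign of a link. Sirt3 was nearest to Lrpprc, a binder of mitochondrial messenger RNA, and Tmem126b, an assembly factor of respiratory complex I, both at r 0.99. Sirt5 was nearest to Oxnad1 and to Acadvl, the very-long-chain acyl-CoA dehydrogenase, both at 0.98. Sirt4 was nearest to Them4 (0.97) and Cdc37l1 (0.96). Sirt1 was nearest to Sc5d, of cholesterol synthesis (0.98), and Zxdb (0.97). Sirt2 was nearest to Cln6 and Acvr1b, an activin receptor (both 0.98). Sirt6 (A_55_P2072468) was nearest to D830030K20Rik (0.97) and Shoc2 (0.94), and Sirt7 (A_51_P352264) to Rusf1 (0.96) and Tshz3 (0.91).

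**Figure D5:**
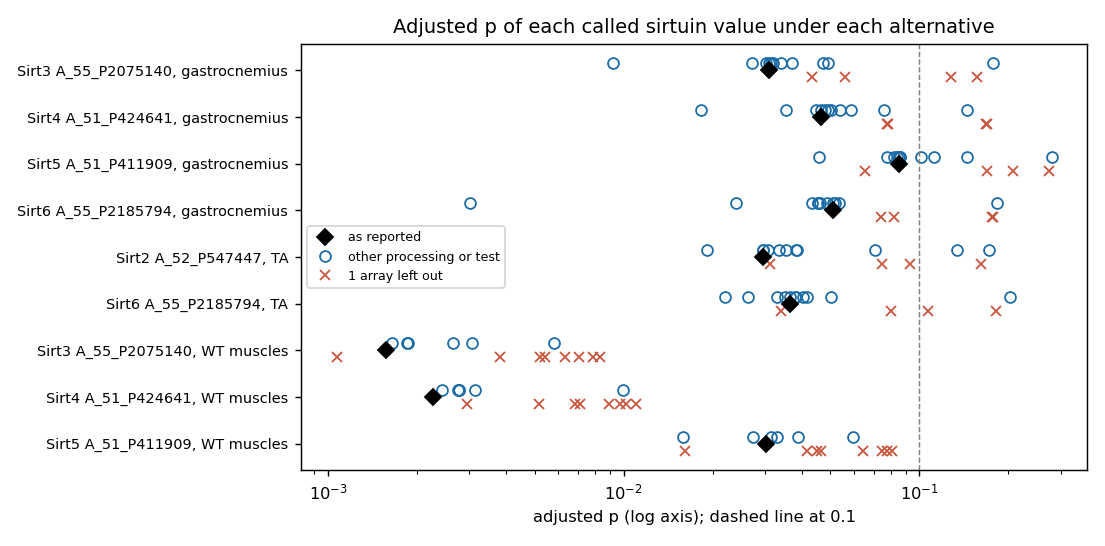
Adjusted p of each called sirtuin value as reported (diamonds), under other processing or tests (circles) and with 1 array left out (crosses), on a log axis. The dashed line marks 0.1. The 3 differences between WT muscles stay left of it throughout, while each genotype value crosses it with at least 1 array left out.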

How the data were processed

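RNA of 4 Eif6+/- and 4 WT mice had been hybridized in pairs to 8 two-colour Agilent SurePrint G3 mouse arrays, 4 with gastrocnemius and 4 with TA. The sample labels give Cy5 as Eif6+/- and Cy3 as WT, while the methods name Cy3 labelling alone. The authors deposited the scanner's spot intensity, not normalized, and processed intensity and log10 ratios (Cy5 over Cy3) from Feature Extraction 10.5.1.1, each array with 62976 spots. The deposited value table holds log2 ratios of Cy5 over Cy3. Its columns had medians of 0.0026, 8e-04, −0.0044 and 0.0037 for gastrocnemius and 0.0014, −4e-04, 0.0029 and 0.0021 for TA, and it matched loess-normalized ratios without background correction (r 1, slope 1).

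Median intensities were corrected by normexp (offset 50), normalized by loess within each array with controls at weight 0, and quantile-normalized over all channels (limma 3.58.1, R 4.3.3). Control and outlier spots were left out and spots of a probe averaged. Testing in a muscle required that all 4 arrays read the probe well above background in either channel, and between WT muscles if Cy3 did so on all 4 arrays of either muscle. Limma tested each log2 ratio against 0, the difference between muscles, and WT gastrocnemius against WT TA, with Benjamini-Hochberg adjustment over all tested probes and an FDR of 0.1. Quantile normalization can return a ratio of exactly 0.

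Probes were named through RefSeq (GRCm38.p6, for names and promoters only), which matched 27235 of 28685 annotated probes. The brightest probe stood for a gene. From each pathway list up to 3 called genes per direction and muscle were named, or the 2 of lowest p where none was called, and 2 genes of like pattern per sirtuin. Marker lists covered fast and general muscle fibre, slow fibre, fat cells, red blood cells, leukocytes, endothelium, connective tissue, myelinated nerve and satellite cells. The members and lists were chosen with earlier results of these data known. The limma fits and SAM were also run on simulated log2 ratios, with noise drawn independently for each probe and array. Variation shared between probes was not simulated. Alternatives covered background correction, normalization, the scanner software's signals, the deposited table, the filter, the threshold, SAM (named for the arrays in the methods), a one-sample test of each probe alone, a block on the pair number and each array left out.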

Additional observations from a re-analysis of the deposited data

Results flagged for a closer look

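Each group of 4 arrays or samples was examined for a value far from the other 3, and 5 of 144 groups had one. Chance gives about 1 in 20 such groups. The WT level of Sirt3 in gastrocnemius pair 4 was 10.64, while the other 3 WT samples lay between 10.34 and 10.36. The log2 ratio of Ccar2 in TA was 0.51 on array 4 and 0.07 to 0.13 on the others. Stk11 in gastrocnemius had −0.57 on array 2 and −0.16 to −0.09 on the others. Foxo1 in TA had −0.09 on array 3, against −0.31 to −0.28. Tshz3 in TA had −0.13 on array 4, against −0.01 to 0.01.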

How the results depend on the processing

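Of the sirtuin values under the alternatives, 554 kept their direction and their side of the threshold, 24 fell short of it, 9 newly passed it and 21 changed sign, none of the last called. In gastrocnemius the sirtuin probes called numbered 2 at an adjusted p of 0.05, 0 by a one-sample test of each probe alone (4 at an unadjusted p under 0.05, 6 by SAM) and 0 to 5 with 1 array left out. All probes called there numbered 1945 with the scanner software's signals, 5460 by SAM, 1080 at 0.05, 0 by that one-sample test (4684 unadjusted) and 0 to 2961 with 1 array left out. In TA the sirtuin probes called numbered 1 with the scanner software's signals, 0 by that one-sample test (3 unadjusted, 2 by SAM) and 0 to 2 with 1 array left out. All probes called in TA numbered 2281 with normexp offset 0, 1578 with the scanner software's signals, 5585 with no filter, 53 by that one-sample test, 1393 at 0.05 and 113 to 3534 with 1 array left out. The difference between muscles had 1 call with no filter and 0 otherwise (1733 unadjusted in the reported analysis). Between WT muscles, leaving out 1 array gave 2662 to 4401 calls. The cause was not tested.

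Signs turned with 1 array left out as follows, over these ranges. In gastrocnemius, Sirt7 A_55_P2045697 ran from −0.081 to 0.053, above 0 without pair 2 (0.0069) or 3. In TA, Sirt3 ran from −0.027 to 0.089, below 0 without pair 1 or 2 (−0.0255), and Sirt4 A_55_P2185372 from −0.134 to 0.042, above 0 without pair 1 or 2 (0.0035). Sirt7 A_51_P352264 ran there from −0.0035, without pair 3, to 0.045. For the difference between muscles, Sirt4 A_55_P2185372 ran from −0.158 to 0.033, above 0 without gastrocnemius pair 2 (0.0119) or 4 (0.0117) or TA pair 3, and was 0.01 with the scanner software's signals. Sirt2 ran from −0.093 to 0.165, below 0 without gastrocnemius pair 1 or 4 (−0.0232) or TA pair 1 (−0.0212) or 3 (−7e-04). Sirt7 A_51_P352264 ran from −7e-04, without gastrocnemius pair 2, to 0.102, Sirt7 A_55_P2045697 from −0.023, without gastrocnemius pair 4, to 0.112, and Sirt6 A_55_P2185794 from −0.127 to 0.026, without TA pair 1. Between WT muscles, Sirt2 ran from −0.138 to 0.15, below 0 without gastrocnemius pair 2 or TA pair 3 (−0.0224) or 4 (−0.0381). The cause was not tested.

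The labels number the pairs 1 to 4 in both muscles without saying that a number marks the same mice. Deviations of the log2 ratios of same-numbered arrays from their muscle means correlated at −0.14, 0.02, −0.36 and 0.09. Those of the WT levels correlated at −0.38, 0.11, −0.08 and 0.18, and those of the Eif6+/- levels at 0.19, 0.01, 0.02 and 0.15. The pairing was therefore not used. With the pair number as a block, the difference between muscles had 0 calls (1412 probes and 1 sirtuin probe at an unadjusted p under 0.05), and the WT muscles had 3036 calls in place of 4409 and 3 sirtuin probes, with adjusted p of 0.0058 for Sirt3, 0.00994 for Sirt4 and 0.0159 for Sirt5. No sirtuin call changed.

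With 4 pairs per muscle, leaving out 1 leaves 3, and a lost call is not a smaller value. At most 48.6% of probes per channel were well above background, which limits what can be read of weak transcripts. The array platform gives 1 or 2 probes per sirtuin, and no protein or enzyme activity was measured here.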

Other observations

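The other enzymes of lysine acetylation, which do not use NAD, gave the following values. Of 11 classical histone deacetylases, 2 rose in gastrocnemius (median −0.00, between −0.00 and 0.13 over the alternatives) and 5 in TA (median 0.02), beside 9.87% and 8.99% of all genes, and 0 fell in either. With the scanner software's signals 1 and 2 were called higher. Hdac9, abundant in muscle, rose by 0.45 in gastrocnemius (limma adjusted p 0.0649) and 0.34 in TA (adjusted p 0.0448), and had 0.79 and 0.55 (adjusted p 0.118 in TA) with those signals. Hdac7 rose by 0.37 in gastrocnemius (adjusted p 0.0409), and Hdac1 by 0.38 (adjusted p 0.0344) and Hdac3 by 0.30 (adjusted p 0.0495, 0.48 with those signals) in TA. Of 18 lysine acetyltransferases tested, 2 rose in gastrocnemius (median 0.03), and 1 rose and 1 fell in TA (median 0.03), beside 15.4% and 16.3% of all genes called either way. With those signals limma called 0 in gastrocnemius (2 at an unadjusted p under 0.05, median 0.15) and 1, higher, in TA (median 0.10). Naa60 rose by 0.51 in gastrocnemius (adjusted p 0.0302) and 0.41 in TA (adjusted p 0.0223). Atf2 rose by 0.30 in gastrocnemius (adjusted p 0.0663), and Acat1 had −0.40 in TA (adjusted p 0.0223). All of these gastrocnemius calls were lost without pair 3 or 4, and all of the TA calls without pair 1, where limma called 0 of both lists (7 and 2 at an unadjusted p under 0.05).

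Markers of other cell types were counted in the same way, and the counts stand beside 9.87% of all genes higher and 5.54% lower in gastrocnemius and 8.99% and 7.28% in TA. For SAM these shares are 15.2% and 10.2% in gastrocnemius and 11.8% and 9.33% in TA. Of 12 fast and general fibre markers, 1 rose and 3 fell in gastrocnemius (median 0.14), and 2 rose and 3 fell in TA (median −0.04). These counts depended on the normalization, the test and gastrocnemius pair 1. In gastrocnemius 6 were called higher and 0 lower with loess alone (median 0.48) and in the deposited table (median 0.52). In TA both gave 5 higher and 2 lower (medians 0.11 and 0.13, so the sign turned). Without gastrocnemius pair 1, 5 were called higher and 3 lower, and SAM called 4 higher and 5 lower in gastrocnemius. Fat cell markers fell in 2 of 6 cases in gastrocnemius (median −0.28) and rose in 3 of 6 in TA (median 0.55). Their medians ran from −0.42 to −0.08 and from 0.28 to 0.78 with 1 array left out, and with the scanner software's signals limma called 0 in either muscle (2 and 3 unadjusted, TA median 0.90). Red blood cell markers had 0 of 5 called by limma in gastrocnemius (3 at an unadjusted p under 0.05, 3 by SAM, median −0.27) and 4 of 6 lower in TA (median −0.65). Of the leukocyte markers, 1 of 6 fell in gastrocnemius (median −0.55, from −0.79 to −0.29 with 1 array left out) and 1 of 8 in TA (median −0.07). Endothelial markers had 0 of 5 called in gastrocnemius (1 unadjusted, 1 by SAM, median −0.04) and 2 of 5 lower in TA (median −0.16). Connective tissue markers had 0 of 6 called in either muscle (1 and 0 unadjusted, 1 and 0 by SAM, medians −0.21 and 0.27), and the medians turned to 0.04 without gastrocnemius pair 3 and −0.18 without TA pair 3. Myelinated nerve markers had 0 of 5 called in gastrocnemius (0 unadjusted, 0 by SAM, median −0.10) and 2 of 5 lower in TA (median −0.21). Of 3 satellite cell markers tested, limma called 0 in either muscle (1 in each unadjusted, 1 and 0 by SAM, medians −0.09 and −0.08). Medians also turned sign for leukocytes in TA (0.03 without pair 2) and satellite cells in gastrocnemius (0.01 without pair 4). The leukocyte call in gastrocnemius and the endothelial calls in TA were lost with the scanner software's signals, where limma called 0 of each (1 of each unadjusted). None of the marker calls in gastrocnemius held without pair 3 or 4. In TA, without pair 1, limma called 1 marker in the fast and general fibre list and 0 in the other 8 lists.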
